A study of Mus musculus with 4 samples.

Results

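Striatal projection neurons, the GABA-releasing output cells of the striatum, arise from the lateral ganglionic eminence of the ventral telencephalon. A set of transcription factors specifies them: some act in the dividing progenitors, others in the young neurons that become direct-pathway cells (which carry the D1 dopamine receptor) or indirect-pathway cells (which carry the D2 receptor). The values below are for 10 genes that encode such factors, taken by gene name from the deposited expression table: Gsx2, Isl1, Ebf1, Six3, Ikzf1, Zfp503, Foxp1, Foxp2, Foxp4 and Tshz1. The 10 were chosen with earlier results of these data known. The names picked 10 of 55414 genes, and all 10 were among the 17017 that passed the filter on low counts.

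The study asked what the kinase MKK7 (encoded by Map2k7), an activator of the JNK kinases, does in the developing cortex. RNA of the cerebral cortex was sequenced from C57BL/6J mice at postnatal day 1, in 2 libraries labelled Control (Mkk7flox/flox) and 2 labelled cKO (Mkk7flox/flox Emx1-Cre). Both floxed alleles were thus shared by the groups, and Emx1-Cre was what set their labelled genotypes apart. Emx1-Cre acts in progenitors of the dorsal telencephalon, which form the excitatory neurons and glia of the cortex, and it largely spares the eminence that forms striatal projection neurons. The replicate numbers were 2 and 3 in each group. No label ties a library to an animal or litter, so every p-value here speaks for the scatter among 4 libraries alone, part of which may be technical.

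Library totals lay between 19421470 and 22511175 counts. Map2k7 was counted at 38.4 and 30.4 CPM (counts scaled to a total of 1000000 per library) under the Control label and at 47.9 and 48.2 CPM under the cKO label. That is a log2 fold change of 0.48 with an SE of 0.18, which did not pass (edgeR adjusted p = 0.428). Gene totals cannot show a deleted exon, so the genotype labels were not checked by this value, and "the cKO libraries" below means the libraries labelled cKO. Xist was read 1004 to 1218 times in 3 libraries and 0 times in cKO 3, which alone had counts of Y-linked genes (2006 counts over 4 genes). The cKO libraries therefore did not come from the same animal, and sex and library cannot be told apart within that group. Sex was also not balanced between the groups, as both Control libraries had Xist and no Y-linked counts. Its part in the differences between the groups was not tested. Genes that mark cortical excitatory neurons were abundant in all 4 libraries: Neurod6 lay between 480 and 730 CPM and Neurod2 between 192 and 356 CPM.

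All 10 genes were lower in both libraries labelled cKO than in either Control library, so the groups did not overlap for any of them. The same held for 22.2% of all tested genes. Of the 10, Ikzf1 passed the low-count filter only through its Control libraries, and its lower value is read with that limit. Levels under the cKO label ranged from 15.8% of the Control mean (Ikzf1) to 85.4% (Foxp4). They were below 40% for 5 genes (Ikzf1, Isl1, Ebf1, Six3 and Zfp503) and between 50% and 90% for the other 5 (Gsx2, Foxp2, Foxp1, Tshz1 and Foxp4). The median log2 fold change of the 10 was -1.11, against -0.002 over all tested genes, of which 50.2% were negative. In bulk tissue, fewer cells of a type and less RNA per cell cannot be told apart.

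None of the 10 passed the threshold of 0.05 in edgeR's quasi-likelihood test with Benjamini-Hochberg adjustment over all genes (adjusted p from 0.202 to 0.697). That test called 0.0411% of all tested genes lower. At an unadjusted p below 0.05, 6 of the 10 were lower, where the share of lower genes over all tested was 5.66% (that of higher genes was 5.28%). DESeq2 called 4 of them lower (Ebf1, Isl1, Six3 and Foxp1), against 0.641% of the genes it tested. Limma-voom called 0 of 10, and limma on the authors' TPM called 0 of the 9 it kept. Because the 10 were chosen with earlier results known, setting them beside the shares over all genes is no test of the set. The statements that follow give levels and their order, and "lower" there describes the libraries and is not a call over all genes.

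**Figure D1:**
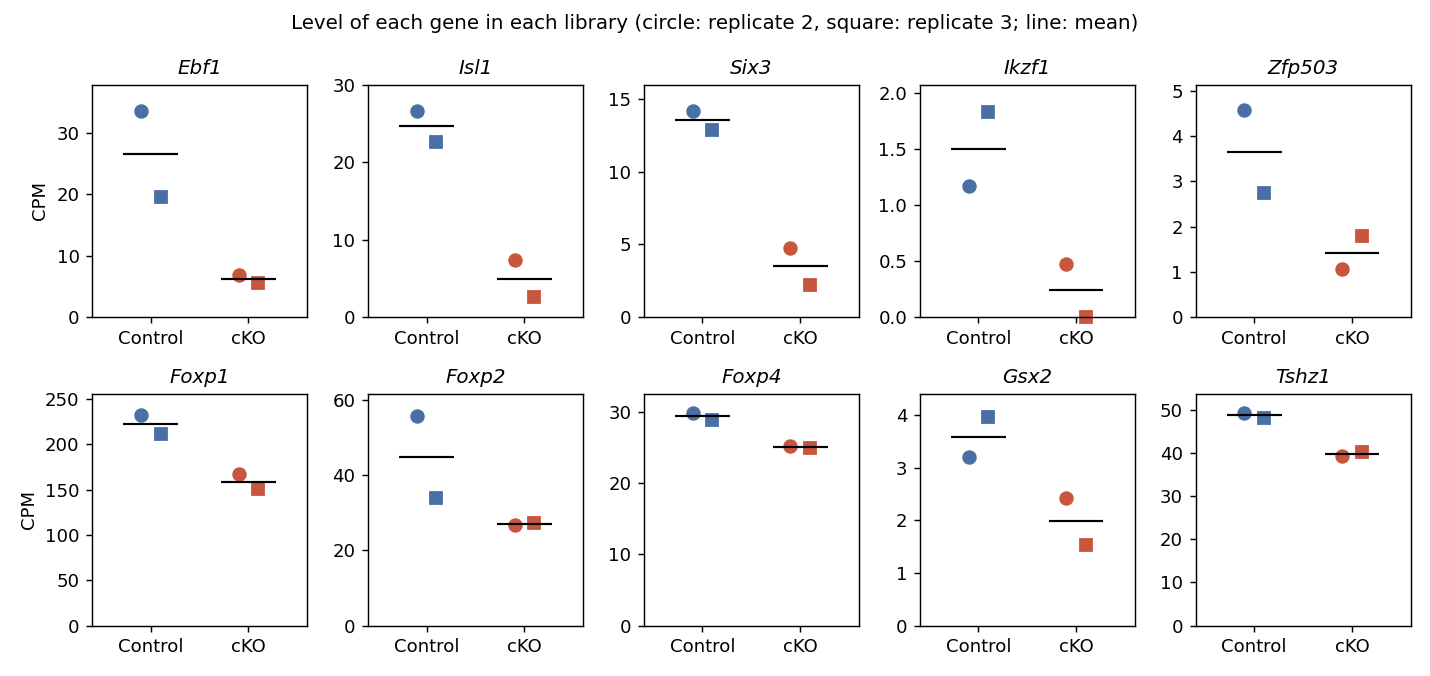
Level in CPM (vertical axis of each panel, from 0) of the 10 genes in each library; circles are replicate 2, squares replicate 3, and lines the mean of a group. In every panel both cKO points lie below both Control points, from Ikzf1 (1.17 and 1.83 against 0.474 and 0 CPM) to Foxp4 (29.9 and 28.8 against 25.2 and 25.0 CPM).

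Start regions are shown for Ebf1 and Six3, one factor of each pathway, whose p-values were among the smallest of the 10. They are the 250 bases upstream of the transcript start in RefSeq (GRCm38.p6), 5′ to 3′, for Ebf1 chr11:44619978-44620227 (plus strand; the later of its 2 listed starts) and for Six3 chr17:85620584-85620833 (plus strand). Capitals mark CG dinucleotides, of which Ebf1 has 14 and Six3 has 10, against a median of 6 over all listed starts (a count made after the sequences were seen). The Six3 window overlaps an exon of the opposite-strand gene Gm28528.
Ebf1: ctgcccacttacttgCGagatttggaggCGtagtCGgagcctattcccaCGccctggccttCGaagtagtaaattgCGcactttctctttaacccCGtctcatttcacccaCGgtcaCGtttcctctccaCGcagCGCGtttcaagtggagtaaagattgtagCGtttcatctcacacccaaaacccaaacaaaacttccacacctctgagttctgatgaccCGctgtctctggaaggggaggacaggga
Six3: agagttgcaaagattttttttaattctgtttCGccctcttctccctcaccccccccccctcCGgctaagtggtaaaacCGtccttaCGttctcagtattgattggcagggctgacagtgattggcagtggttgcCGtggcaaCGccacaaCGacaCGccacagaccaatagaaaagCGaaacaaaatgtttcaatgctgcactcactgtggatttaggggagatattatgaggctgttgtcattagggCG
The homeodomain core TAATTA and the forkhead core TGTTTAC (or its reverse complement GTAAACA) were searched on both strands of this 250-base window (TAATTA reads the same on both). Of the members, 8 had an entry, with 12 windows. TAATTA was in 1 of the 12 and in 4.84% of all 32851 windows; TGTTTAC was in 0 of the 12 and in 3.17% of all. The match lay at position -240 from the second of 3 listed Foxp1 starts, at chr6:99266738-99266765 on the minus strand, shown with the core in capitals.
Foxp1: ctagtgaacaTAATTAattgcaattgtt
A match describes the letters alone, and says nothing of binding. Foxp2 and Tshz1 had no entry. These coordinates are on another build than the gene positions below.

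Gsx2 is the homeobox factor that gives progenitors of the lateral ganglionic eminence their identity, and it is switched off as the cells leave the cycle. It was a gene of low level at this age, with 63 and 78 counts in the Control libraries and 46 and 35 counts in the cKO libraries. These correspond to 3.21, 3.96, 2.42 and 1.53 CPM. The nearest libraries of the groups were Control 2 and cKO 2, 63 against 46 counts. Its log2 fold change of -0.86 had an SE of 0.51 (edgeR adjusted p = 0.584). Gsx2 (ENSMUSG00000035946.8) lies on chromosome 5, 75236262 to 75238554 (GRCm39, as are all gene positions here).

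Isl1 and Ebf1 are factors of direct-pathway neurons. Isl1 encodes a LIM-homeodomain protein that is also needed by the cholinergic interneurons of the striatum, and Ebf1 a helix-loop-helix factor that direct-pathway neurons need for their maturation. Isl1 (ENSMUSG00000042258.14; chromosome 13, 116434817 to 116446225) was at 26.6 CPM in Control 2, 22.7 in Control 3, 7.37 in cKO 2 and 2.54 in cKO 3. The Control values were close together, whereas cKO 3 was well below cKO 2. The group means were 24.7 ± 2.72 and 4.96 ± 3.42 CPM (SD, n = 2), and the fit gave a log2 fold change of -2.32 (SE 0.46; edgeR adjusted p = 0.264; DESeq2 adjusted p = 4.24e-05).

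Ebf1 (ENSMUSG00000057098.15; chromosome 11, 44508144 to 44898918) had the smallest p of the 10, 24th among all tested genes. It stood at 33.6 and 19.5 CPM in the Control libraries and at 6.85 and 5.60 CPM in the cKO libraries. Here it was the Control libraries that lay apart, and the cKO libraries were close. This gave a log2 fold change of -2.09 (SE 0.33; edgeR adjusted p = 0.202; DESeq2 adjusted p = 3.7e-06). Ebf1 is also a gene of pericytes and mural cells. The 11 genes listed for those cells summed to 203 and 202 CPM in the Control libraries and to 245 and 223 CPM in the cKO libraries. All 11 had counts, 8 were positive, and none was called by edgeR or had an unadjusted p below 0.05. The most abundant of them were Vtn (log2 fold change 0.28, SE 0.16) and Rgs5 (0.38, SE 0.17). Ebf1 was at 16.5% and 9.66% of this sum in the Control libraries and at 2.79% and 2.51% in the cKO libraries, and the part of these cells in its value was not tested.

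Six3 and Ikzf1 act on the indirect-pathway side. Six3 is a homeobox factor needed for the making of D2-receptor neurons, and Ikzf1 (Ikaros) is a zinc-finger factor best known from lymphocytes that also acts in the birth of enkephalin neurons. Six3 (ENSMUSG00000038805.11; chromosome 17, 85921036 to 85936730) stood at 14.2 and 12.9 CPM in the Control libraries and at 4.74 and 2.23 CPM in the cKO libraries. Control values were again the tighter pair, and cKO 3 the lowest library. Together they gave a log2 fold change of -1.97 (SE 0.41; edgeR adjusted p = 0.277; DESeq2 adjusted p = 0.00505).

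The library kit does not mark strand, and Six3 overlaps the antisense gene Six3os1, so reads in the overlap cannot be assigned to a strand. Six3os1 had 117 and 97 counts in the Control libraries and 12 and 61 in the cKO libraries, 42.6% of the Six3 counts over all libraries. Six3os1 had a log2 fold change of -1.70 (SE 0.67; edgeR adjusted p = 0.434). Its order within the cKO pair was the opposite of that of Six3, with cKO 2 the lower. The other overlapping gene with more than 1% of a member's counts was Gm28528, at 1.28% of those of Six3.

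Ikzf1 (ENSMUSG00000018654.18; chromosome 11, 11635003 to 11722926) was at the edge of detection, with 23 and 36 counts in the Control libraries and 9 and 0 in the cKO libraries. It passed the filter on low counts through the Control libraries alone, so its lower value under the cKO label was partly fixed by that filter. The scaled ratio of summed counts was 0.143 (95% exact binomial interval 0.0625 to 0.291, which covers counting error only), and the 0 in cKO 3 allows up to 0.131 CPM (3 counts). The fitted log2 fold change, which rests on a library at 0, was -2.67 (SE 1.34; edgeR adjusted p = 0.520). It was -1.65 without cKO 3 and -7.96 without cKO 2, where the remaining cKO library had 0 counts and the value is no bound. Microglia also can express Ikzf1. The 9 microglial and immune genes summed to 137 and 149 CPM under the Control label and to 141 (cKO 2) and 105 CPM (cKO 3), with 6 of 9 negative and none called by edgeR. Their most abundant genes were C1qb (log2 fold change -0.31, SE 0.19) and Csf1r (-0.16, SE 0.34). Ikzf1 was at 0.852% and 1.23% of this sum in the Control libraries and at 0.335% and 0% in the cKO libraries. The part of microglia in the Ikzf1 value was not tested.

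Zfp503 (Nolz1) encodes a zinc-finger protein of young striatal neurons. The gene (ENSMUSG00000039081.11) lies on chromosome 14, 22034027 to 22039669, and stood at 4.58 and 2.74 CPM in the Control libraries and at 1.05 and 1.80 CPM in the cKO libraries. Unlike Isl1 and Six3, it was higher in cKO 3 than in cKO 2. Its log2 fold change was -1.35 (SE 0.58; edgeR adjusted p = 0.457).

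The forkhead factors of the FOXP family formed the other end of the range. Foxp1 and Foxp2 are made in striatal projection neurons and in excitatory neurons of the cortex, Foxp2 there mainly in layer 6, and Foxp4 is made in both regions too. FOXP proteins bind DNA as dimers with themselves or with each other. Foxp1 (ENSMUSG00000030067.18; chromosome 6, 98902299 to 99499682) was the most abundant of the 10 and stood at 233 and 212 CPM in the Control libraries and at 167 and 151 CPM in the cKO libraries. Its fold was small but tight: the group means were 223 ± 14.5 and 159 ± 11.8 CPM (SD, n = 2), a log2 fold change of -0.49 (SE 0.12; edgeR adjusted p = 0.301; DESeq2 adjusted p = 0.0375).

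Foxp2 (ENSMUSG00000029563.17; chromosome 6, 14901348 to 15441976) stood at 55.6 and 33.9 CPM in the Control libraries and at 26.7 and 27.3 CPM in the cKO libraries. Most of its spread was between the Control libraries, and the cKO values nearly coincided. For Foxp2 the log2 fold change was -0.73 (SE 0.25; edgeR adjusted p = 0.405), and without Control 2 it was -0.33. Foxp4 (ENSMUSG00000023991.17; chromosome 17, 48178058 to 48235570) stood at 29.9 and 28.8 CPM in the Control libraries and at 25.2 and 25.0 CPM in the cKO libraries. It had the smallest fold of the 10, with a log2 fold change of -0.23 (SE 0.19; edgeR adjusted p = 0.697).

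Per length, in the authors' TPM (length-scaled transcript levels with the same total in every library), Foxp1 made up 77.7% and 79.8% of the summed Foxp1, Foxp2 and Foxp4 level in the Control libraries and 80.9% and 75.7% in the cKO libraries. The summed level was 144 and 136 TPM against 101 and 98.8 TPM. The groups did not overlap in the sum, while they overlapped in the share of Foxp1. Foxp2 held 9.79% and 6.65% against 5.82% and 6.68%, and Foxp4 12.5% and 13.5% against 13.3% and 17.6%, both with overlap. With 2 libraries against 2, no exact permutation test of such a single value can go below p = 0.333.

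The layer 6 genes, listed because Foxp2 is shared with those cells, overlapped between the groups in their sum. It was 331 and 316 CPM in the Control libraries and 301 and 323 CPM in the cKO libraries, with 5 of 9 negative, a median log2 fold change of -0.07 and 0 called by edgeR. At an unadjusted p below 0.05, 2 of the 9 were lower, Sulf1 (log2 fold change -0.98, SE 0.27) and Syt6 (-0.68, SE 0.20), named after their values were seen. The most abundant were Tbr1 (0.20, SE 0.13) and Tle4 (-0.07, SE 0.16). The part of layer 6 cells in the Foxp2 value was not tested. Upper-layer genes summed to 540 and 627 CPM against 627 and 652 CPM, with 2 of 9 negative, 1 higher at an unadjusted p below 0.05, none called by edgeR, and Cux1, the most abundant, at -0.11 (SE 0.12).

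Tshz1 (ENSMUSG00000046982.12) encodes a zinc-finger protein of the dorsal part of the eminence, of olfactory bulb interneurons and of a group of striatal projection neurons. It stood at 49.2 and 48.1 CPM in the Control libraries and at 39.2 and 40.1 CPM in the cKO libraries. The groups were each tight, with means of 48.7 ± 0.828 and 39.7 ± 0.624 CPM (SD, n = 2), and the gap between them was larger than these SDs. The log2 fold change, over a spread that edgeR moderates across genes, was -0.29 (SE 0.16; edgeR adjusted p = 0.546). Olfactory bulb genes summed to 145 and 136 CPM in the Control libraries and to 133 and 142 CPM in the cKO libraries, with 5 of 8 negative, 1 lower at an unadjusted p below 0.05 (Th, log2 fold change -1.30, SE 0.50, named after its value was seen) and none called by edgeR. The most abundant were Calb2 (log2 fold change -0.26, SE 0.19) and Etv1 (0.07, SE 0.16).

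**Figure D2:**
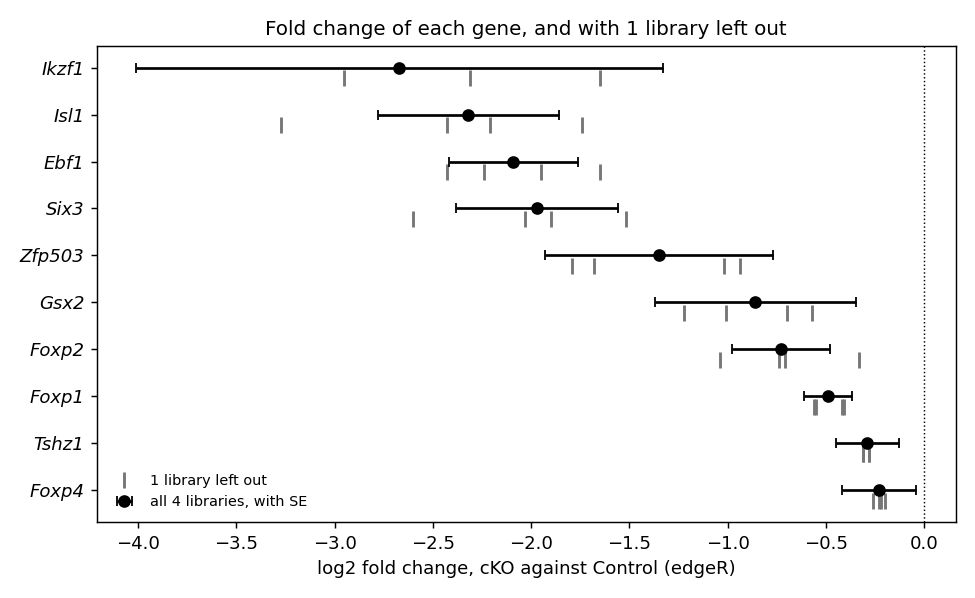
Log2 fold change of each gene, cKO against Control (edgeR; points, with the standard error), and the values with 1 library left out (grey ticks); the Ikzf1 value without cKO 2 is not drawn, because the remaining cKO library had 0 counts. All values lie left of 0. The points run from -0.23 for Foxp4 to -2.67 for Ikzf1, and the grey ticks of Isl1 spread from -3.27 to -1.74.

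The sign was negative for all 10 genes whichever library was left out. Which library mattered differed between genes. Without cKO 3 the log2 fold change of Isl1 was -1.74 and that of Six3 -1.52, and without cKO 2 they were -3.27 and -2.60. For Ebf1 it was Control 2 that carried most: -1.65 without it and -2.43 without Control 3. Of the 10 genes, 7 were lower in cKO 3 than in cKO 2, and 8 were higher in Control 2 than in Control 3.

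Ordered by mean TPM, which allows genes to be compared, the Control libraries gave Foxp1 (110 ± 2.41 TPM), Isl1 (21.2 ± 0.566), Foxp4 (18.2 ± 0.247), Tshz1 (13.3 ± 0.391), Foxp2 (11.6 ± 3.58), Ebf1 (9.23 ± 1.98), Six3 (8.44 ± 0.593), Gsx2 (3.65 ± 0.467), Zfp503 (1.42 ± 0.538) and Ikzf1 (0.400 ± 0.126; SD, n = 2). Tshz1 and Foxp2, Foxp2 and Ebf1, and Ebf1 and Six3 were neighbours whose libraries overlapped. Under the cKO label Isl1 ranked 5 in this order, at 4.25 ± 3.79 TPM, behind Foxp1 (78.2 ± 4.78), Foxp4 (15.4 ± 2.82), Tshz1 (10.6 ± 1.18) and Foxp2 (6.23 ± 0.521). The Isl1 values there were 6.93 and 1.57 TPM, which overlapped those of both Foxp2 and Ebf1. Ebf1 (2.32 ± 0.136), Six3 (2.09 ± 0.798) and Gsx2 (1.93 ± 0.429) followed, each overlapping the next, and Zfp503 (0.534 ± 0.244) and Ikzf1 (0.0635 ± 0.0898) were last.

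The ratio of 3 of these factors to Foxp1 within a library was lower in both cKO libraries than in either Control library. Ebf1 stood at 9.50% and 7.22% of the Foxp1 TPM in the Control libraries and at 2.96% and 2.97% in the cKO libraries. Isl1 stood at 19.3% and 19.2% against 8.49% and 2.09%. Six3 stood at 7.92% and 7.40% against 3.25% and 2.03%. The ratios of these factors to each other overlapped between the groups: Isl1 over Six3 was 2.44 and 2.59 against 2.61 and 1.03, and Ebf1 over Isl1 was 0.492 and 0.376 against 0.349 and 1.42, and in both it was cKO 3 that stood apart.

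Other factors of the lineage, in a list of 30 genes that holds none of the 10, were lower in part. In edgeR 1 of 30 passed the threshold: Rxrg, the retinoid X receptor gamma, fell to 3.37 and 7.84 CPM in the cKO libraries from 87.3 and 63.5 CPM in Control (edgeR adjusted p = 0.0414). Its log2 fold change was -3.73 (SE 0.38), and it lay between -4.48 and -3.26 with 1 library left out. The call was lost without Control 2, Control 3, cKO 2 or cKO 3 (edgeR adjusted p = 0.846, 0.441, 0.232 and 0.372). None was called higher, where 11 were lower and 1 higher at an unadjusted p below 0.05. The retinoic acid receptor gene Rarb, the TALE homeobox gene Pbx3 and the zinc-finger homeobox gene Zfhx3 came next by p, with log2 fold changes of -2.59 (SE 0.38), -1.51 (SE 0.27) and -1.88 (SE 0.35). Of the 30, 23 were negative, with a median of -0.30. The list also held genes with small or positive values. Gsx1, the relative of Gsx2, stood at 0.815 and 0.203 CPM in the Control libraries and at 1.42 and 1.05 CPM in the cKO libraries (named after its values were seen). These values rest on 16 and 4 counts in the Control libraries and 27 and 24 in the cKO libraries, near the low-count filter. The log2 fold change of Gsx1 was 1.27 with an SE of 0.92 (edgeR adjusted p = 0.659).

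Dlx2, which acts downstream of Gsx2 in the eminence and stays on in cortical interneurons, was also named after its values were seen. Its groups overlapped, unlike those of Gsx2, and it stood at 57.9 and 60.7 CPM in the Control libraries and at 63.1 and 41.1 CPM in the cKO libraries. The log2 fold change of Dlx2 was -0.19 (SE 0.22). Gsx2 was at 8.10% and 9.74% of the Dlx2 TPM in the Control libraries and at 5.81% and 5.57% in the cKO libraries. Dlx1, Dlx5 and Dlx6 of the same list were lower in both cKO libraries than in either Control library. Their log2 fold changes were -0.20 (SE 0.15), -0.81 (SE 0.24) and -2.42 (SE 0.58), also named after their values were seen. For Dlx1 the nearest libraries were Control 2 and cKO 2, 98.0 against 97.7 CPM.

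Close relatives of the 10 in their own gene families gave a median of 0.03 over 11 tested of 18 listed, with 4 negative and 7 positive. None passed in edgeR, and 1 was lower and 1 higher at an unadjusted p below 0.05. Tshz3, a relative of Tshz1 made in cortical as well as striatal neurons, stood at 27.9 and 36.6 CPM in the Control libraries and at 43.6 and 56.0 CPM in the cKO libraries with a log2 fold change of 0.63 (SE 0.21; edgeR adjusted p = 0.399). Ebf4, a relative of Ebf1, had a log2 fold change of -0.85 (SE 0.29), Zfp703, the relative of Zfp503, one of 0.52 (SE 0.27), and Ikzf5 one of 0.46 (SE 0.25). Isl2, Lhx4, Six6 and Ikzf3 had 0 counts in all 4 libraries.

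**Figure D3:**
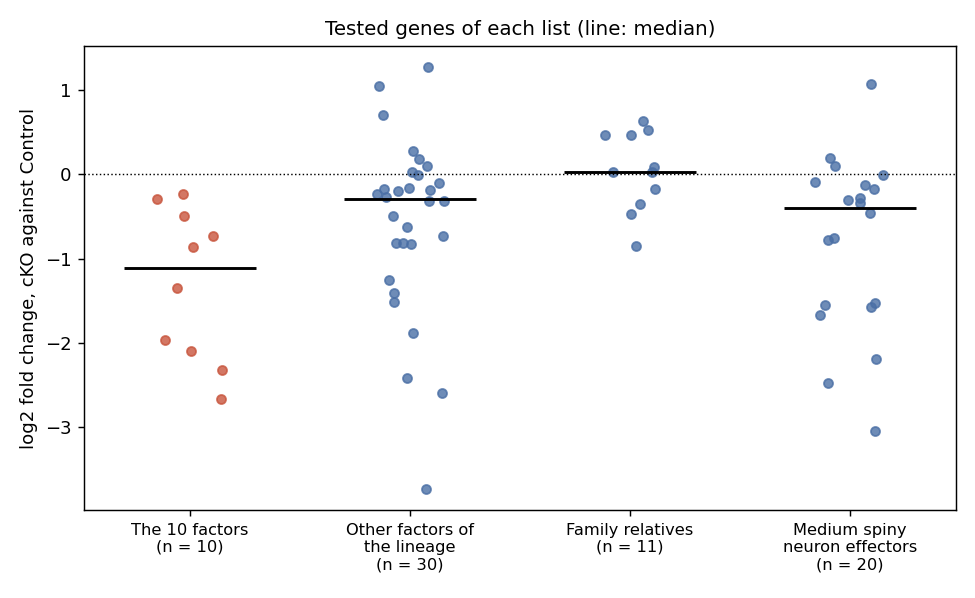
Log2 fold change, cKO against Control, of each tested gene (points) of the 10 factors and of 3 lists, with the median as a line. The medians are -1.11 for the 10 factors, -0.30 for 30 other factors of the lineage, 0.03 for 11 family relatives and -0.40 for 20 effector genes of medium spiny neurons. The 10 factors are the one set shown with no point above 0, and also the smallest set. All sets were chosen with earlier results of these data known.

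The effector genes that mature striatal projection neurons (medium spiny neurons) use were lower in part as well, with 17 of 20 tested negative, a median of -0.40 and none called by edgeR, where 8 were lower at an unadjusted p below 0.05. Among those with the smallest p were the peptidase gene Ecel1 (log2 fold change -1.55, SE 0.23), the D2 receptor gene Drd2 (-2.48, SE 0.46) and Penk, which encodes enkephalin (-1.67, SE 0.33). Their edgeR adjusted p-values lay between 0.180 and 0.260. The D1 receptor gene Drd1, named after its values were seen, stood at 20.6 and 15.0 CPM under the Control label and at 13.5 and 12.3 CPM under the cKO label, with a log2 fold change of -0.46 (SE 0.26).

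Markers of other cells in or near the striatum were measured beside the 10 factors. The 6 genes of striatal cholinergic interneurons, which need Isl1, summed to 19.6 and 23.3 CPM in the Control libraries and to 6.48 and 4.07 CPM in the cKO libraries, with Chat at 0.102 CPM in Control 2 and at 0 in the other libraries. The most abundant were Lhx8 (log2 fold change -2.08, SE 0.55) and Slc18a3 (-1.97, SE 0.54), and 4 of the 5 tested were lower at an unadjusted p below 0.05. Interneuron genes of the medial eminence summed to 774 and 759 CPM against 720 and 641 CPM, with Npy at a log2 fold change of -0.03 (SE 0.18) and Sst at -0.67 (SE 0.13). Of those 8, 5 were negative, and Sst and Nkx2-1 (-1.57, SE 0.51) were lower at an unadjusted p below 0.05. Thalamic genes summed to 97.5 and 95.5 CPM against 80.5 and 93.0 CPM, with Slc17a6, the most abundant, at 0.01 (SE 0.19). Of those 8, 5 were negative, with a median of -0.34, and 2 were lower at an unadjusted p below 0.05: Tcf7l2 (-0.78, SE 0.31) and Gbx2, which the cholinergic list shares and which had 0 counts in both cKO libraries (Nkx2-1, Tcf7l2 and Gbx2 were named after their values were seen). Gbx2 passed the low-count filter only through the Control libraries, and the cholinergic and thalamic tallies both count it as lower. None of the tested genes of these 3 lists was called by edgeR. The part of these cells in the values of the 10 factors was not tested.

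Genes of cortical excitatory neurons went the other way. Their sum was 962 and 1160 CPM in the Control libraries and 1430 and 1370 CPM in the cKO libraries, with 6 of 6 positive, a median of 0.32 and none called by edgeR. The most abundant were Neurod6 (log2 fold change 0.44, SE 0.12) and Neurod2 (0.56, SE 0.16), and 3 of 6 were higher at an unadjusted p below 0.05. The third was Emx1 (0.75, SE 0.25), named after its value was seen. It is the gene of the Emx1-Cre driver that differs between the groups, and the part of the driver in its value was not tested. The share of striatal tissue in each dissected sample is not given in the labels, and its part in the lower level of the 10 factors was not tested. The choroid plexus gene Ttr separated the libraries by another line. It stood at 763 and 335 CPM in Control 2 and cKO 2, and at 7.31 and 4.99 CPM in Control 3 and cKO 3. None of the 10 factors could have that order over all 4 libraries, because their groups did not overlap. Within groups, 8 of the 10 were higher in Control 2 than in Control 3, and 7 were lower in cKO 3 than in cKO 2, as Ttr was. The part of this difference between libraries in the values of the 10 was not tested. Of the 6 choroid plexus genes tested 3 were negative and none was called by edgeR.

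**Figure D4:**
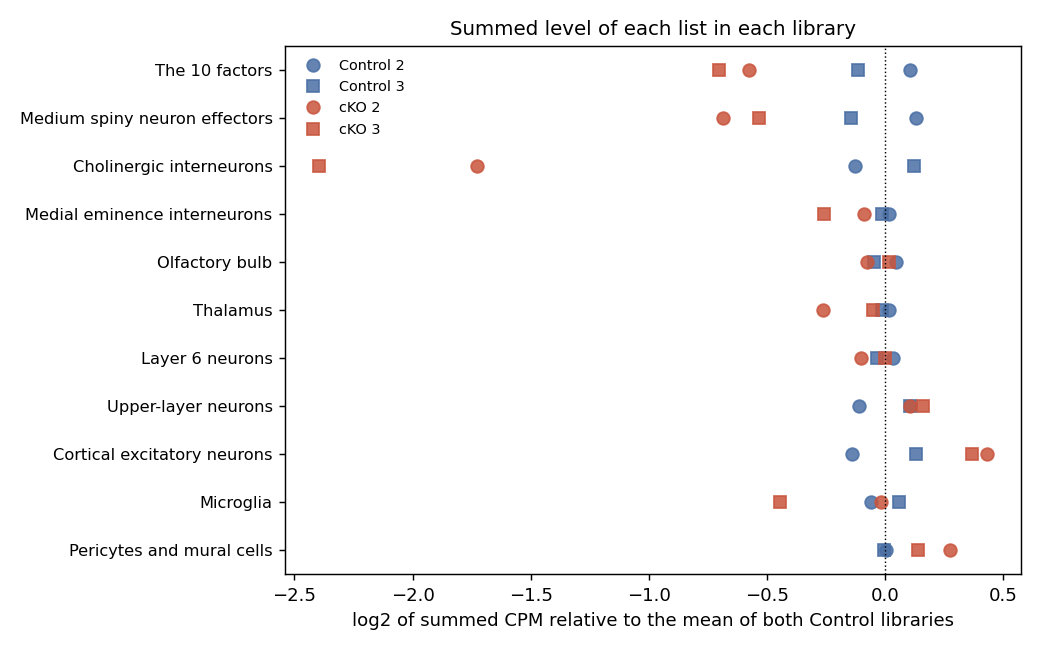
Summed level of the 10 factors, of the medium spiny neuron effectors and of 9 marker lists in each library, as the log2 of its ratio to the mean of both Control libraries (blue Control, red cKO; circles replicate 2, squares replicate 3); the choroid plexus list, whose sums ran from 19.7 to 809 CPM, is not drawn, nor are the lineage factors (2390 and 2390 against 2140 and 2230 CPM) and the family relatives (126 and 127 against 129 and 156 CPM). Both cKO libraries lie left of both Control libraries for the 10 factors (281 and 257 CPM against 451 and 387 CPM, most of it Foxp1), for medium spiny neuron effectors, for cholinergic interneurons (the farthest) and, by less, for medial eminence and thalamic genes; they lie right of them for cortical excitatory neurons and for pericytes and mural cells.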

How the data were processed

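The submitters' processing notes name DRAGEN and the build GRCm39. The tool's version and settings were not given in the sources used here. The authors deposited estimated counts per gene (12.0% to 13.5% of rows not whole) and TPM for each library. Per the labels' protocols, libraries were made with the SMART-Seq v4 Ultra Low Input kit, which does not mark strand.

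The estimated counts were rounded. Genes were kept by edgeR's default filter (edgeR 4.0.16, R 4.3.3; minimum count 10), scaled by TMM and compared with the quasi-likelihood test, genotype as the only term, with Benjamini-Hochberg adjustment over 17017 genes; the SE is the absolute log2 fold change over the square root of F. The test was tried on counts simulated from its own fitted spread, with changes set only in the more abundant genes. That trial does not cover genes as low as Ikzf1, Gsx2 and Zfp503, nor a wrong estimate of the spread. Its outcome is not reported here. CPM are TMM-scaled, and ± is the SD over 2 libraries. Fold changes come from all 4 libraries. Alternatives were RLE and upper-quartile scaling, other filters, DESeq2 1.42.0, limma 3.58.1 (voom, and log2 of TPM with pseudocounts 1 and 0.1), robust shrinkage, a replicate block and leaving out each library.

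The members and lists were chosen with earlier results of these data known. Named were all 10 members, up to 4 genes by smallest p of each of 3 pathway lists, up to 2 by largest CPM of each marker list, and for Ebf1 and Foxp1 the 5 genes of nearest profile; others are marked, and a few genes that the rule names are not reported here. All 156 listed symbols matched. Promoter sequences are RefSeq's, GRCm38.p6.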

Additional observations from a re-analysis of the deposited data

How the results depend on the processing

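Across 14 alternatives, the log2 fold changes of the 10 genes kept a negative sign in all 137 values that could be computed. Without a filter on low counts edgeR called 2 of the 10 lower (Ebf1 and Isl1, adjusted p = 0.0134 and 0.0260), and DESeq2 called 4; the cause was not tested. Every other alternative called 0 of them, and none was called higher under any alternative. Limma on TPM and the filter at a mean of 1 CPM left out Ikzf1. The replicate numbers were not taken to pair the libraries (2 pairs; correlation of their deviations 0.0136 over 17017 genes). With the number as a block (replicate block), 6 genes in all were lower and 1 higher, and the Ebf1 value was -2.05. Over all genes, 7 lower and 1 higher calls became 37 and 21 without a filter, 111 and 79 by DESeq2, and 14 and 43 by limma on log2(TPM + 1). Higher calls were 2 at a mean of at least 1 CPM, 3 by limma-voom and 30 by limma on log2(TPM + 0.1). With 1 library left out, between 0 and 2 genes were lower and 0 higher; the lone library of a group was then assumed to vary like the other group. Depth limits Ikzf1, Gsx2 and Zfp503, which had at most 90 counts in a library.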

Other observations

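Among the genes whose profile over the 4 libraries lay nearest to that of Ebf1 were Ankrd26, Zfhx3, Adora2a and Slc16a13, by the root mean square distance of log2 CPM centred on each gene's mean. Their distances ran from 0.244 for Ankrd26 to 0.274 for Slc16a13. Ankrd26 stood at 21.9 and 14.6 CPM in the Control libraries and at 5.69 and 5.82 CPM in those labelled cKO, with Control 2 above Control 3 as for Ebf1. Adora2a, an adenosine receptor gene of indirect-pathway neurons, stood at 17.1 and 12.3 CPM against 5.48 and 4.42 CPM. Nearest to Foxp1 were Grin1, Aldh16a1, Rian, Coa6 and Med18, at distances from 0.00556 to 0.0207. Grin1, which encodes a subunit of the NMDA receptor, stood at 108 and 97.5 CPM against 77.6 and 69.8 CPM. With 4 libraries these names are a description only.

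The ratio of counts to TPM gives an apparent transcript length, here put on a scale of bases by 879 genes with 1 listed transcript. Depending on the library, the 5th percentile of these genes lay at 0.665 to 0.690 of their listed length, the 95th at 1.13 to 1.18. An apparent length within that spread of the gene length is not read as a difference. Foxp1 had 31 listed transcripts and a deposited gene length of 7177 bases, and its apparent length was 3177 and 2958 bases in the Control libraries and 2841 and 3152 bases in those labelled cKO. For Foxp2 it was between 5659 and 6466 bases, beside a gene length of 6760. Isl1 was at 1877 and 1651 bases in the Control libraries and at 1474 and 2538 bases in cKO 2 and cKO 3, the last from 58 counts. The Isl1 ratio of cKO 2 to cKO 3 is therefore larger in TPM than in CPM. Ebf1 was at 4817 bases in Control 2 and between 3760 and 3946 bases in the other libraries. How reads were assigned to transcripts is not given in the sources used here, and isoform use was not tested.

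Gbx2, a homeobox gene that the cholinergic and thalamic lists share, had 30 and 52 counts in the Control libraries and 0 in both libraries labelled cKO. It passed the low-count filter only through the Control libraries, so its lower value was partly fixed by that filter. Its p-value is not printed, but both lists count it among their genes lower at an unadjusted p below 0.05. Gbx2 was named after its values were seen.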
